A study of Oryctolagus cuniculus with 6 samples.

Results

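Very long genes were examined in rabbit (Oryctolagus cuniculus) skin sampled at 30 days of age, as loci that carry an Ensembl ID and span at least 200 kb of the genome from their lowest to their highest mapped transcript feature. Of the 15280 loci in the series, 727 met this rule, and 594 of them reached 1 FPKM or more in at least 3 of the 6 libraries and were compared. A further 37 loci of that span had no Ensembl ID and were left out. The series holds 3 libraries of skin labelled Prss53-/-, a knockout of the trypsin-like serine protease gene Prss53 generated by CRISPR/Cas9 editing, together with 3 wild-type libraries of the same age. The question put to the long loci was whether their levels and their choice of first exon differed with the genotype label. Whether each library is a separate animal is not stated, so every p-value below measures the spread between these libraries, which may be technical.

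Most of a very long mammalian gene is intron. RNA polymerase takes far longer to cross such a gene than a compact one, and introns are removed while transcription is still under way. Very long genes are known for products that act at the cell surface and in the matrix, such as adhesion molecules, matrix proteins, channels and cytoskeletal linkers, and many of them start from several promoters far apart. This is background from other mammals. The deposited tables identify genes by Ensembl ID only and the RefSeq table used here matched 0 of 12276 IDs, so no locus has a gene name or a role in this account, loci are given by position, and neither the level of Prss53 nor any skin marker could be used to check the labels. Genome build is not given in the sources used here, and the coordinates are those of the authors' files.

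Values are FPKM (fragments scaled to transcript length and to the number of mapped fragments) as the authors deposited them. A locus missing from a library entered as 0 and is called not listed. Depth is unknown, because the tables hold no counts. Among the 594 loci, 582 were listed in all 6 libraries, 10 in 5 and 2 in fewer. Knockout replicate 3 stood apart from its group. Across the 594 loci the Pearson r of log2(FPKM + 1) between it and knockout replicates 1 and 2 was 0.894 and 0.889, against 0.948 between replicates 1 and 2 and 0.921 to 0.950 between wild-type pairs. These correlations run across loci, and loci are not independent replicates. As many as 47 long loci in knockout replicate 3 lay at least 2-fold below both other knockouts, against 10 and 7 in knockout replicates 1 and 2 and 7 to 13 in the wild-type libraries. These 47 are 7.91% of the long loci, beside 9.25% of all tested loci. The medians and counts by genotype over the long loci are given with and without this library.

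The median span of the 594 loci was 295 kb and the longest 1550 kb, with 313 loci between 200 and 300 kb, 219 between 300 and 500 kb, and 62 of 500 kb or more. Long loci were expressed at moderate levels. Their median was 5.75 FPKM (the middle 50% of loci lay between 3.10 and 10.4 FPKM), beside 8.11 FPKM for tested loci under 200 kb with an Ensembl ID, and the median was 6.14 FPKM at 200 to 300 kb and 3.93 FPKM at 500 kb or more. Only 25 long loci averaged 30 FPKM or more. Together the 594 loci carried 2.37%, 2.43% and 2.07% of the summed FPKM of all tested loci in the knockouts and 2.55%, 2.80% and 2.56% in wild type. All 3 knockout shares were lower than all 3 wild-type shares, with or without knockout replicate 3. In bulk skin, fewer cells of a type and less RNA per cell cannot be told apart.

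**Figure D1:**
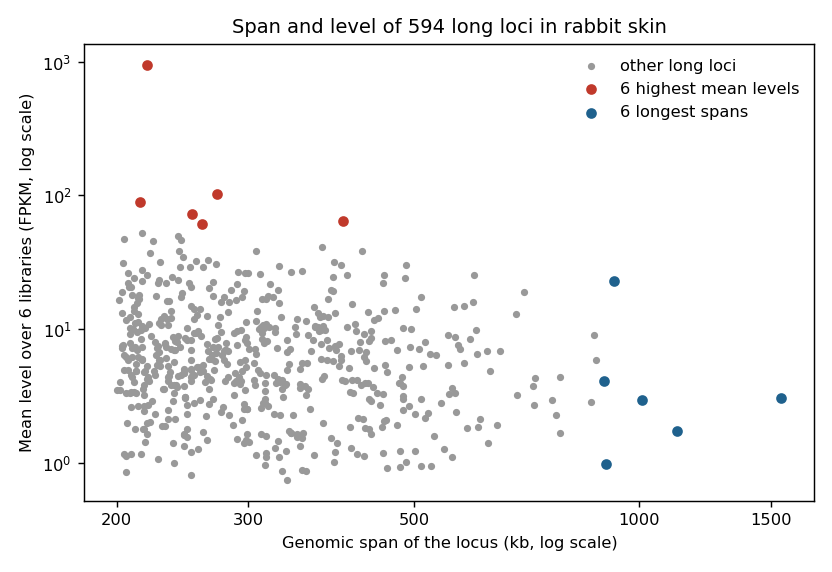
Genomic span (kb, log scale) against mean level over the 6 libraries (FPKM, log scale) for the 594 long loci, 1 point per locus. The 6 loci with the highest mean levels (red) all span 401 kb or less, and of the 6 with the longest spans (blue) only the 926 kb locus lies above 10 FPKM.

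One long locus was far more abundant than the rest. On the plus strand of chromosome 19 from 8926143 to 9145422 it had 864, 1165 and 640 FPKM in knockout skin and 991, 1263 and 753 FPKM in wild-type skin. The ranges overlapped. Next came a chromosome 14 locus from 155065571 to 155337619, with 79.3, 127 and 82.2 FPKM in knockout skin and 119, 99.0 and 108 FPKM in wild-type skin. A chromosome 2 locus from 131494285 to 131709126 varied least among the 6 most abundant, with 85.8, 89.7 and 88.2 FPKM in knockout skin and 91.1, 86.5 and 89.7 FPKM in wild-type skin (log2 difference -0.020 ± 0.14 SE in limma). The other 3 averaged 73.1 FPKM (chromosome 3, 135955078 to 136207114), 64.1 FPKM (an unplaced scaffold, 6178 to 407213) and 61.5 FPKM (chromosome 17, 23801721 to 24061952). None of the 6 passed the test between genotypes, with limma adjusted p-values of 0.446 to 0.963.

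The 6 longest loci were mostly low. The longest locus, 1550 kb on the minus strand of chromosome X from 17819562 to 19369969, had 2.69, 5.02 and 0.701 FPKM in knockout skin and 2.99, 4.45 and 2.46 FPKM in wild-type skin. Knockout replicate 3 was the lowest of the 6 libraries there. It was also the lowest at the X-linked locus from 91805502 to 92704568 (899 kb), with 1.23 FPKM against 5.13 and 5.37 FPKM in the other knockouts, and at both long-span loci of chromosome 14, at 16163470 to 17067414 (904 kb) and 70142853 to 71150806 (1008 kb), where it had 0.0995 and 1.46 FPKM. On chromosome 7, by contrast, the 1124 kb locus from 69801661 to 70925867 had 1.85, 1.60 and 2.13 FPKM in the knockouts, within the wild-type range of 1.16 to 2.21 FPKM. The most abundant of the 6 longest was on chromosome 5 from 36846448 to 37772802 (926 kb), with 17.6, 19.4 and 18.9 FPKM in knockout skin and 29.3, 28.0 and 23.0 FPKM in wild-type skin. Its groups did not overlap, but it did not pass the test (log2 difference -0.50 ± 0.16 SE in limma, with an adjusted p of 0.204).

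Levels varied widely on both sides of the 200 kb threshold. Just inside it, a chromosome 10 locus from 7226970 to 7427363 averaged 3.50 FPKM and a chromosome 21 locus from 8113176 to 8315161 averaged 3.53 FPKM, while 2 loci on chromosome 1 averaged 0.276 and 0.421 FPKM and were too low to be tested. Also just inside was an unplaced-scaffold locus from 126989 to 328503, which averaged 16.5 FPKM. The 5 loci just outside averaged 0.593 to 18.9 FPKM. Among them, a chromosome 3 locus from 21257085 to 21456191 averaged 11.3 FPKM and a chromosome 15 locus from 13150847 to 13350484 averaged 18.9 FPKM.

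The level of 3 long loci differed between genotypes, with 1 higher and 2 lower in knockout skin (limma on log2(FPKM + 1), Benjamini-Hochberg adjusted over all 10899 loci tested, adjusted p under 0.05). Fold changes on this scale understate the change of low loci. After quantile normalization of the libraries 3 were higher and 3 lower (1.01% of the long loci, beside 1.15% of all tested loci). The 3 are 0.505% of the 594, beside 1.03% of all tested loci called in either direction (0.587% higher, 0.44% lower). The locus that rose, ENSOCUG00000006463, lies on the minus strand of chromosome 13 from 12962671 to 13275684. It had 26.3, 21.2 and 22.7 FPKM in knockout skin and 11.3, 11.4 and 8.33 FPKM in wild-type skin, or 23.4 ± 2.63 against 10.3 ± 1.74 FPKM (SD, n = 3 each). The log2 difference was 1.11 ± 0.18 SE in limma, with an adjusted p of 0.0449. Every knockout library lay above every wild-type library. The locus passed in none of the 6 refits with 1 library removed, with adjusted p-values of 0.0801 to 0.176.

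The larger of the 2 falls was at ENSOCUG00000008736, on the plus strand of chromosome 11 from 2297774 to 2544631. It was not listed in knockout replicate 1, had 0.864 and 1.07 FPKM in replicates 2 and 3, and had 4.99, 5.31 and 5.98 FPKM in wild type (log2 difference -2.03 ± 0.29 SE in limma, with an adjusted p of 0.0292). It passed in 2 of the 6 refits with 1 library removed, those without knockout replicate 1 (adjusted p = 0.0223) and without knockout replicate 3 (adjusted p = 0.0399), and reached 0.158 at most. With a pseudocount of 0.1 FPKM in place of 1 the limma adjusted p was 0.172. Its entry into the test rested on wild type, the group where it is high, since of the knockouts only replicate 3 reached 1 FPKM. The fits of loci listed in all 6 libraries and of loci averaging 5 FPKM or more did not include it. ENSOCUG00000007642, on chromosome 3 from 135730986 to 135939287, fell as well. It had 5.16, 5.15 and 3.12 FPKM in knockout skin and 14.6, 21.0 and 12.0 FPKM in wild-type skin, 4.48 ± 1.18 against 15.8 ± 4.61 FPKM (SD, n = 3 each). The log2 difference was -1.61 ± 0.26 SE in limma, with an adjusted p of 0.0433. The groups were well apart, yet it passed in none of the 6 fits (adjusted p = 0.0820 to 0.173). The locus that follows it on the same strand, from 135955078, is the abundant one named above at 73.1 FPKM, where the groups overlapped.

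Several other long loci had differences of similar size without passing. On chromosome 17 the locus from 78021871 to 78397143 had 9.16, 7.94 and 9.04 FPKM in knockout skin and 4.36, 3.09 and 2.41 FPKM in wild-type skin, every knockout above every wild-type library (log2 difference 1.20 ± 0.20 SE in limma, with an adjusted p of 0.0503). On chromosome 7 the locus from 128589854 to 128904820 had 6.54, 4.83 and 2.64 FPKM in knockout skin and 15.6, 17.3 and 14.0 FPKM in wild-type skin, with all knockouts lower (log2 fold change -1.61 ± 0.27 SE, limma adjusted p = 0.0503). It passed without knockout replicate 1 (adjusted p = 0.0430) and without knockout replicate 3 (0.0399). Further loci that did not pass were higher in every knockout library than in any wild-type library. They lay on chromosome 3 from 19335501 to 19817926 (5.85 ± 0.567 against 2.87 ± 0.316 FPKM) and from 881163 to 1092141 (19.0 ± 3.63 against 10.2 ± 1.07 FPKM), and on chromosome 7 from 60185320 to 60398136 (12.5 ± 2.86 against 6.51 ± 1.31 FPKM), all SD with n = 3 per group. The remaining 2 of the 6 with the largest differences upward had overlapping groups.

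Knockout replicate 3 was the lowest library at each of the 6 largest differences downward that did not pass, the chromosome 7 locus included. An unplaced-scaffold locus from 2984118 to 3192728 had 2.52, 1.19 and 0.790 FPKM in knockout skin and 4.74, 5.60 and 5.12 FPKM in wild-type skin, and it passed without knockout replicate 1 (limma adjusted p = 0.0309). On chromosome 14 the locus from 114604383 to 114820507 had 20.9, 15.2 and 7.44 FPKM against 32.2, 30.4 and 31.2 FPKM. The chromosome 12 locus from 62205395 to 62434181 had 32.1, 21.3 and 7.69 FPKM against 48.8, 45.1 and 36.8 FPKM. The other 2, on chromosome 8 from 97631872 to 97878589 and on chromosome 13 from 80724950 to 80949782, averaged 1.60 and 2.77 FPKM in knockout skin, against 4.66 and 6.25 FPKM. In these 5 loci every knockout lay below every wild-type library, and the limma adjusted p-values lay between 0.0759 and 0.267. Like the rises above, they were chosen for the size of their difference, which favours groups that do not overlap. Over all tested loci every knockout lay below at 16.7% and above at 9.59%.

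**Figure D2:**
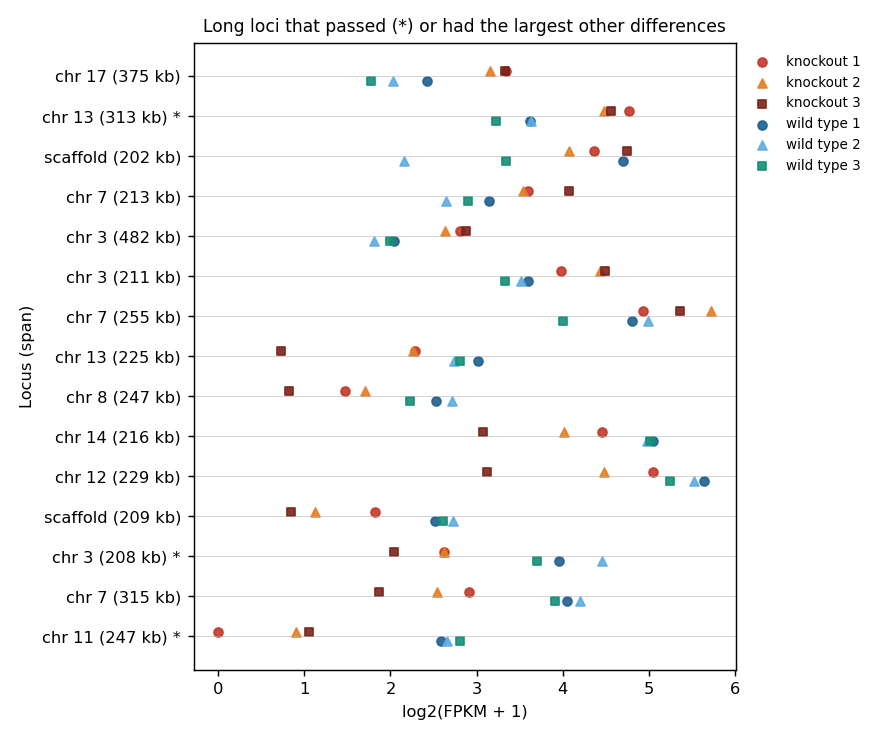
Level of 15 long loci in each library as log2(FPKM + 1), knockouts above and wild types below each line. Asterisks mark the 3 loci that passed, and the other 12 had the largest differences among loci listed in all 6 libraries. Knockout replicate 3 (dark squares) is the lowest library at each locus of this lower group except the chromosome 11 locus, which knockout replicate 1 does not list.

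Beyond single loci, long loci were on balance lower in the knockout libraries. The median log2 difference was -0.16 and 412 of the 594 (69.4%) had a knockout mean below the wild-type mean on this scale, beside a median of -0.066 and 57.7% over all tested loci. Without knockout replicate 3 these shares were 66.9% and 62.5%. After quantile normalization 57.7% of the long loci and 48.2% of all tested loci lay below zero. Every knockout lay below every wild-type library at 123 long loci (20.7%, beside 16.7% of all tested loci) and above at 31 (5.22%, beside 9.59%). The nearest shorter loci were close to this. Without quantile normalization, loci of 100 to 200 kb had 67.6% below zero, with every knockout below at 23.4% and above at 6.88%. At 50 to 100 kb these were 66.2%, 20.4% and 7.71%, so the tendency was not particular to long loci. With all 6 libraries, an unadjusted limma p under 0.05 was reached by 92 long loci (15.5%, beside 16.3% of all tested loci), 73 of them lower and 19 higher. Among all 10899 tested loci, 1090 were lower and 682 higher at that p. Without knockout replicate 3 it was reached by 95 of 586 long loci, beside 1853 of all 10703 loci tested.

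With all 6 libraries the medians were mostly lower at longer spans. They were 0.033 for loci under 10 kb, -0.078 at 10 to 50 kb, -0.15 at 50 to 100 kb and at 100 to 200 kb, -0.16 at 200 to 300 kb, -0.14 at 300 to 500 kb and -0.20 at 500 kb or more. Without knockout replicate 3 the same classes had medians of -0.044, -0.11, -0.10, -0.11, -0.11, -0.095 and -0.12, which were alike from 10 kb upward. The libraries contributed unequally. Relative to the wild-type mean of each locus, knockout replicate 3 had a median of 0.22 for loci under 10 kb and -0.19 for long loci. Knockout replicates 1 and 2 had medians of -0.056 and -0.016 under 10 kb and -0.11 and -0.089 for long loci. The wild-type libraries stayed between -0.026 and 0.033 for long loci. Their own mean is the reference, so they are held near 0 by construction.

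Without knockout replicate 3 the median of the long loci was -0.10 and that of all tested loci -0.090, so their gap shrank from -0.097 to -0.013. Leaving out any other single library kept the gap between -0.12 and -0.062, and library quality weights in limma gave -0.020. Without knockout replicate 3, 172 long loci (29.0%, beside 25.9% of all) had every remaining knockout below every wild-type library and 44 (7.41%, beside 12.2%) above. What sets this library apart was not tested.

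**Figure D3:**
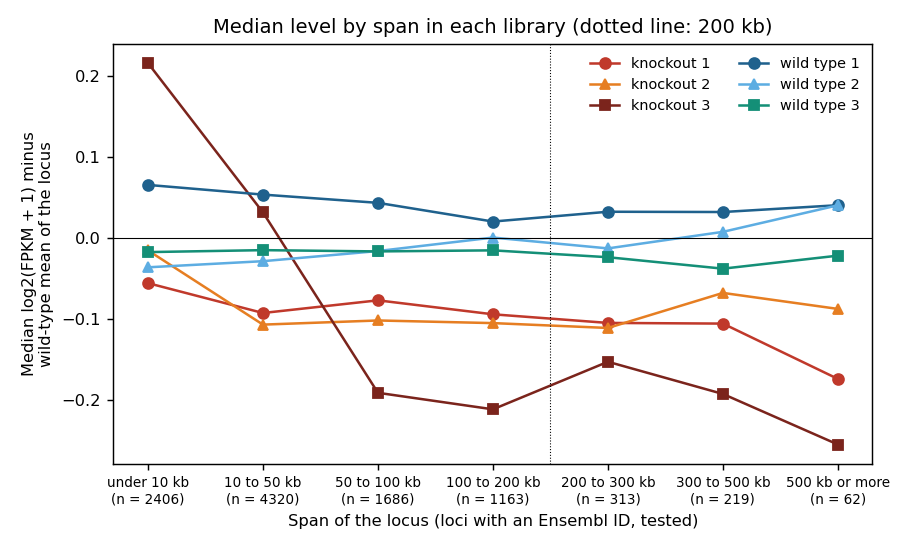
Median over loci of log2(FPKM + 1) minus the locus's wild-type mean, by span class, 1 line per library. Knockout replicate 3 goes from 0.22 under 10 kb to -0.26 at 500 kb or more, while knockout replicates 1 and 2 lie below 0 in every class. The wild-type lines stay near 0 by construction, because their own mean is the reference.

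Long loci often had several first exons. A first exon here is the first exon of an assembled transcript and need not be a mapped promoter. Of the 594 loci, 309 (52.0%) had at least 2 first exons that do not overlap, beside 26.2% of tested loci under 200 kb. The share grew with span, from 10.9% under 10 kb to 47.0% at 100 to 200 kb and 55.7% at 300 to 500 kb, and was 48.4% at 500 kb or more. First exons enter the span of a locus, so distant first exons themselves lengthen it. These shares and the distances below therefore depend partly on the rule that chose the loci. First exons were pooled over the libraries, and some were listed in a single library. In 189 loci there were 3 or more separate first exons, and at most 9. The outermost first exons of a locus lay a median of 158 kb apart, and 208 loci had them at least 100 kb apart. The greatest distance was 838 kb, in an 863 kb locus on chromosome 15, where the upstream exon carried all of the first-exon FPKM in 5 libraries and 57.9% in wild-type replicate 3.

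Use of the upstream start did not separate the genotypes across the long loci. Over the 233 loci with at least 1 FPKM of first exons in every library, the most upstream one carried on average 47.3%, 50.8% and 48.8% of the first-exon FPKM in the knockouts and 49.5%, 49.4% and 50.7% in wild type. The ranges overlapped. The knockout mean was higher at 103 loci and lower at 130 (55.8%), with a median difference of -1.15 percentage points. Among loci under 200 kb it was lower at 50.8%, with a median difference of -0.22 points. At 28 of the long loci (12.0%) the group means differed by 20 points or more, beside 15% of the 2040 shorter loci measured the same way.

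Single first exons were then tested as shares of the first-exon FPKM of their locus. Of 839 first exons at 240 long loci, 3 at 2 loci passed (limma on shares, adjusted over all 8260 first exons tested), or 0.358% beside 0.63% of all. At an unadjusted p under 0.05 there were 49 (5.84%, beside 6.56%). The first locus is on the plus strand of chromosome 12 from 145240008 to 145485971. Its upstream first exon, from 145240008 to 145240149, was not listed in any knockout and carried 45.7%, 47.1% and 40.0% in wild type (limma adjusted p = 0.0174). A first exon 158 kb further in, from 145397557 to 145397595, carried 88.1%, 100% and 89.3% in the knockouts and 54.3%, 52.9% and 52.7% in wild type (limma adjusted p = 0.0329). In FPKM the downstream exon had 3.77, 2.56 and 4.60 in the knockouts and 3.36, 2.76 and 3.04 in wild type, and these ranges overlapped, while the upstream exon had 2.83, 2.45 and 2.31 FPKM in wild type alone.

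At the second locus, on chromosome 7 from 112425438 to 112750235, the most downstream of 6 first exons carried 54.6%, 60.5% and 53.6% in the knockouts and 87.0%, 84.3% and 88.4% in wild type (limma adjusted p = 0.0355). This exon, from 112715244 to 112715737, had overlapping levels in the groups, 3.39, 2.43 and 3.39 FPKM against 3.17, 2.71 and 3.28 FPKM. Upstream of it, a first exon from 112602065 to 112602435 had 1.03, 0.786 and 1.07 FPKM in the knockouts and was not listed in wild type (share 16.6%, 19.6% and 17.0%, limma adjusted p = 0.0982). The upstream exon on chromosome 12 passed in 1 of the 6 refits with 1 library removed, that without wild-type replicate 3 (limma adjusted p = 0.0298, and 0.0836 at most). The other called exons passed in none, with adjusted p-values up to 0.126 and 0.135.

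The other 6 loci of the 8 with the smallest adjusted p had no exon that passed. On chromosome 10, in the locus from 40248666 to 40458405, a first exon 27.3 kb inside the gene carried 21.5%, 26.6% and 18.3% in wild type and was not listed in the knockouts (limma adjusted p = 0.0941). On chromosome 15 the third first exon of the locus from 60958616 to 61333874 carried 30.6%, 30.0% and 19.2% in wild type and was not listed in the knockouts (limma adjusted p = 0.0961). The outermost first exon of the minus-strand locus on chromosome 16 from 4582130 to 4787709 had a larger share in the knockouts, 34.9%, 37.1% and 30.0% against 13.0%, 14.7% and 16.9% (limma adjusted p = 0.128). A chromosome 12 locus from 147077022 to 147511452 listed its innermost first exon, 409 kb from the upstream edge, in the knockouts alone, at 12.5%, 15.5% and 15.2%. On chromosome 4 the second first exon of the locus from 44126204 to 44363192 carried 15.2%, 3.40% and 2.73% in the knockouts and 30.0%, 25.8% and 31.2% in wild type.

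The locus with the most first exons, 14, was also among these. It lies on an unplaced scaffold from 126989 to 328503, and its level varied widely, with 19.6, 15.9 and 25.9 FPKM in knockout skin and 25.0, 3.46 and 9.16 FPKM in wild-type skin. Its upstream exon from 126989 to 127263 carried 31.5%, 67.7% and 73.4% in the knockouts and was not listed in wild type (limma adjusted p = 0.183). Added to the overlapping exon that shares its start, the pair carried 71.2%, 67.7% and 84.8% in the knockouts. This sum passed in a separate fit of overlapping first exons added together (limma adjusted p = 0.0106). That fit was not repeated with a library removed. Wild-type replicate 1 instead used an exon 0.362 kb from the edge for 92.3% of its first-exon FPKM and wild-type replicate 3 one at 0.798 kb for 49.8%, while wild-type replicate 2 listed neither.

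**Figure D4:**
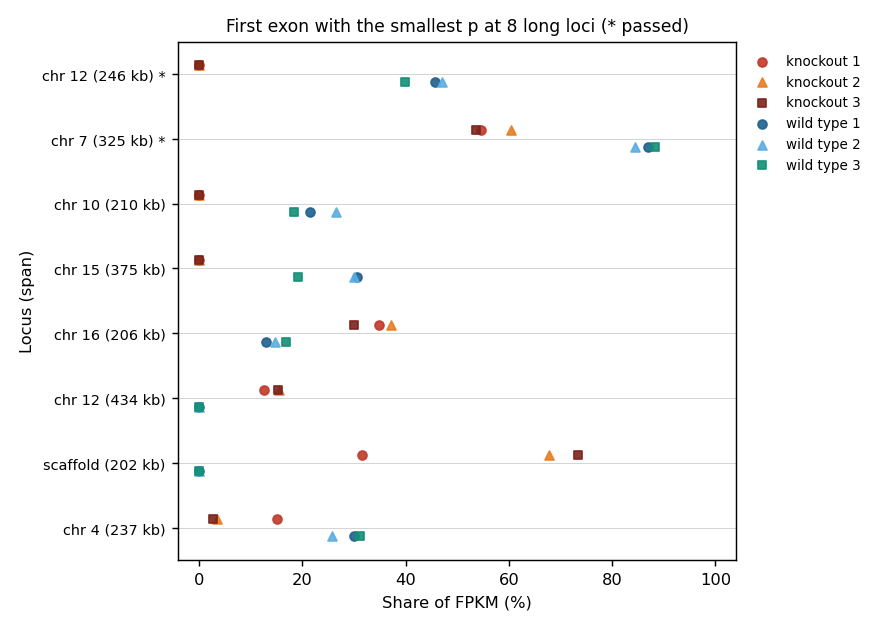
Share of the first-exon FPKM (%) carried by the first exon with the smallest p at each of 8 long loci, in each library, knockouts above and wild types below each line. Asterisks mark the 2 loci with an exon that passed. At 3 of the loci the exon is at 0% in all knockouts, and at the lower chromosome 12 locus and the scaffold locus it is at 0% in all wild types.

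The same loci were read for last exons, skipped exons and retained introns, each kind adjusted over all its elements. Last exons passed at 3 of 145 (2.07%, beside 1.21% of all last exons), skipped exons at 2 of 419 (0.477%, beside 0.296%) and introns at 1 of 79 (1.27%, beside 0.8%). At an unadjusted p under 0.05 there were 8 last exons (5.52%, beside 6.68%), 32 skipped exons (7.64%, beside 6.73%) and 5 introns (6.33%, beside 6.91%). On chromosome 16, in the minus-strand locus from 84197683 to 84477082, a last exon 41.0 kb from the upstream edge carried 24.6%, 27.0% and 27.6% in wild type and was not listed in any knockout (limma adjusted p = 0.00944). It did not pass without knockout replicate 2 (0.0555) or wild-type replicate 2 (0.0579). That locus as a whole had 4.53, 4.99 and 4.41 FPKM in knockout skin and 8.99, 8.71 and 9.87 FPKM in wild-type skin, with groups apart, and missed the threshold (limma log2 fold change -0.85, adjusted p = 0.0503). An early last exon on an unplaced scaffold, in the minus-strand locus from 542093 to 793428, carried 40.0%, 61.1% and 48.3% in wild type, where the knockouts used the end at the far edge of the locus for 100% (limma adjusted p = 0.0235). These last exons passed only in the refits without wild-type replicate 1 or 2, and otherwise had adjusted p-values up to 0.0964.

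Exon inclusion differed at 2 loci. The 96-base exon from 4730808 to 4730903 on chromosome 16 belongs to the locus named above for its outermost first exon. It was included in 100% of the FPKM in each knockout and in 43.2%, 22.7% and 21.0% in wild type (limma adjusted p = 0.0171), and of the 6 refits it passed only without wild-type replicate 1 (0.00470). The 750-base exon on chromosome 15 from 61855574 to 61856323, in a 231 kb locus, was at 0% in each knockout while wild type had 73.5% ± 1.56 (SD, n = 3). It was the only 1 of the 9 called elements of long loci to pass in all 6 such fits, with a largest adjusted p of 0.0131. With the replicate number as a block it did not pass (limma adjusted p = 0.0634). The intron on chromosome 7 from 150528388 to 150532643 sits 285 kb into a 313 kb locus, and it was retained at 40.4% ± 3.84 in wild type and 0% in each knockout (limma adjusted p = 0.00847). It did not pass without knockout replicate 2 (0.0573), knockout replicate 3 (0.0535) or wild-type replicate 2 (0.0512). Shares of 0% or 100% in a whole group have no spread of their own, so these p-values lean on the spread estimated from other elements. For none of the 9 called elements did the forms together reach 5 FPKM in every library. A form that is not listed entered as 0, so a weak form cannot be told from an absent one.

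**Figure D5:**
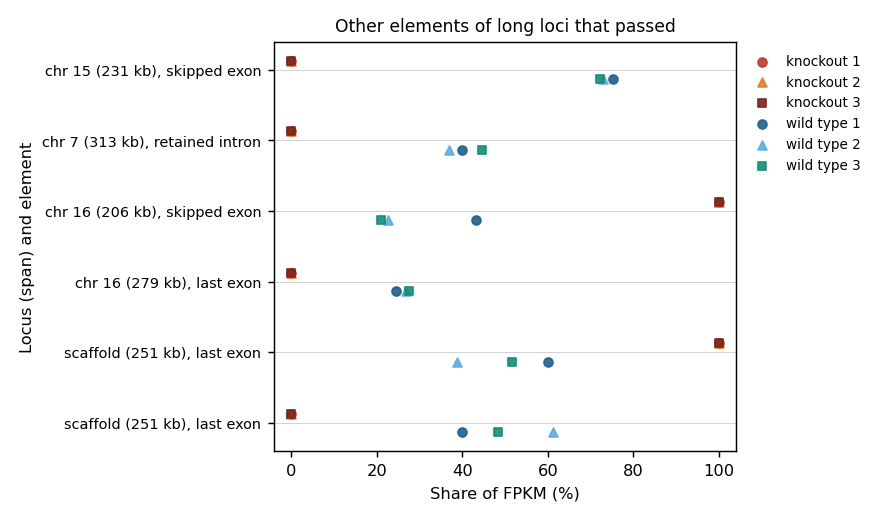
Share of FPKM (%) of the last exons, skipped exons and retained intron of long loci that passed, in each library, knockouts above and wild types below each line. All 3 knockouts sit at 0% or at 100% for each element, and the 2 last exons of the scaffold locus are complementary.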

How the data were processed

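RNA-seq of 3 Prss53-/- and 3 wild-type skin libraries was read as FPKM per transcript event, in the unit in which the authors deposited it. Per the submitters' processing notes, bcl2fastq 2.17.1.14 and cutadapt were used. Which aligner, assembler, event caller and genome build were used is not given in the sources used here. Without counts the depth cannot be known, and counting intervals are left out. A missing row was entered as 0 (lowest listed value 0.000171 FPKM).

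The value of a locus in a library was the largest of its summed first-exon FPKM, its summed last-exon FPKM and its highest single event. Loci with at least 1 FPKM in 3 or more libraries were fitted together in limma 3.58.1 (R 4.3.3) on log2(FPKM + 1), with genotype alone and empirical Bayes with trend. Shares of first exons, last exons, skipped exons and introns were fitted without trend where the forms together reached 1 FPKM in every library. Tests were two-sided with Benjamini-Hochberg adjustment over all loci, or over all elements of a kind. On simulated data with known changes, the share of false calls came out above the threshold for levels and for first-exon shares. First exons of a locus are complementary and not independent. Tables and plots used Python 3.11.15, pandas 2.3.3, numpy 2.4.6 and matplotlib 3.10.9.

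Named loci were those called, the 6 with the highest mean, the 6 longest, the 6 in each direction with the largest difference among uncalled loci listed in all 6 libraries, the 8 with the smallest first-exon adjusted p and the one with the most first exons. Loci called for other elements, those next to the threshold and the one with the most distant first exons were added to show those results. The members and lists were chosen with earlier results of these data known. Alternatives covered the pseudocount, filters, locus value, scaling, library weights, span threshold, replicate block and each library left out. Markers of skin cell types were not used, because the IDs could not be paired with names.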

Additional observations from a re-analysis of the deposited data

How the results depend on the processing

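With 3 libraries a group and an unknown depth, the counts of calls moved easily. The limma count of 3 long loci became 0 with a pseudocount of 0.1 FPKM. It was also 0 with only loci averaging 5 FPKM or more, and with only loci listed in all 6 libraries. In that order 88 of 594, 47 of 323 and 94 of 582 long loci had an unadjusted p under 0.05. Of all loci, these settings called 0.734%, 0.619% and 0.392%, and 1691 of 10899, 1091 of 7104 and 1693 of 10456 had such an unadjusted p. The limma count was 1 without a filter (0.138%, beside 0.582% of all loci) and 6 after quantile normalization (1.01%, beside 1.15%). With library quality weights it was 13 (3 higher and 10 lower, 2.19% beside 2.47%). At a span of 100 kb or more 17 loci were called (0.968%) and at 300 kb or more 1 (0.356%), beside 1.03% of all loci. Leaving out each library gave 0 to 3 (at most 0.509%, beside 0.149% to 0.794% of all loci). An unadjusted p under 0.05 was then reached by 51 to 96 of 582 to 589 long loci. Of all 10703 to 10726 loci it was reached by 1118 to 1895. The count was 3 for first-exon sums (0.546%, beside 1.31% of all loci) and 4 for last-exon sums (0.771%, beside 1.24%). Of these, 1 and 2 were among the 3 loci named in the report. The count was also 3 with loci sharing an ID added together (0.503%, beside 0.944% of all loci) and 3 with span taken within a single library.

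The 3 called first exons became 0 of 393 at 5 FPKM or more (28 at an unadjusted limma p under 0.05). The count was 1 of 839 on the arcsine square-root scale and 0 to 4 of 795 to 829 with each library left out. The 6 of 643 other elements became 1 of 265 at 5 FPKM or more and 2 to 7 of 598 to 653 with each library left out. Shares over all elements are not given in this section. None of the called elements reached 5 FPKM in every library, so the 1 call there is another element. Alternatives for the other elements and for the median were chosen after seeing the data. The median log2 difference of long loci was -0.063 after quantile normalization, where that of all loci was 0.015, and -0.18 to -0.10 when each library was left out, the last without knockout replicate 3. With library quality weights it was -0.11, beside -0.088 for all loci.

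With the replicate number as a block, limma called 2 of 594 long loci (0.337%, beside 0.807% of all 10899). It called 0 of 839 first exons and 0 of 643 other elements. At an unadjusted p under 0.05 there were 92 (beside 1896 of all loci), 49 and 45. Deviations of same-numbered libraries correlated at -0.01, 0.13 and 0.04, and those of other pairs at -0.098 to 0.057. Only knockout replicate 2 correlated best with its own number. The labels state no pairing. Correlations between so few libraries cannot tell whether same-numbered ones were handled together.

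None of the following loci was called, and each log2 difference changed sign. The chromosome 2 locus from 131494285 had 0.13 for first-exon sums, and the chromosome 12 locus from 62205395 had 0.083 for last-exon sums. With library quality weights, values were 0.065 (chromosome 19, 8926143), -0.010 (scaffold, 6178), 0.16 (X, 17819562), 0.055 (chromosome 14, 70142853) and 0.14 (X, 91805502). With each library left out, these loci ranged from -0.40 to 0.034, -0.052 to 0.12, -0.75 to 0.16, -0.54 to 0.033 and -0.52 to 0.24 in that order, and the chromosome 14 locus from 16163470 from -0.44 to 0.067. All 6 had the other sign without knockout replicate 3, and the chromosome 19 locus also without wild-type replicate 2 (7.91e-05).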

Other observations

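Long loci were spread unevenly over the genome. They made up 11.5% of the tested loci on chromosome 15 and 10.6% on chromosome 8. The share was 1.96% on chromosome 21 (2 of 102) and 2.49% on unplaced scaffolds, beside 594 of 10899 in the whole series. A scaffold shorter than 200 kb cannot hold a long locus, and scaffold lengths are not given here. Of the 594, 48 (8.08%) held at least 1 other locus within their bounds, on the opposite strand in 42 and on the same strand in 9, with up to 5 such loci in 1 long locus. Whether reads were assigned by strand is not stated, and whether FPKM is shared between such loci was not tested.

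A missing row did not always mean a low locus. On chromosome 18 the locus from 51491550 to 51726363, chosen after its values were seen, had 3.92, 5.98 and 47.6 FPKM in knockout skin. Wild-type replicates 1 and 2 had 4.34 and 35.7 FPKM, and wild-type replicate 3 did not list it. Its limma adjusted p was 0.735.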
